A study of Mus musculus with 25 samples.

Results

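The genes described are 9 members of the Hsp70 chaperone system measured in injured mouse muscle: Hspa1a, Hspa1b, Hspa1l, Hspa8, Hspa4, Hspa9, Dnajb1, Dnajb4 and Bag3. They were taken by name, through the probe sets that the array's annotation gives to exactly 1 of these symbols, and not by their values. The 9 genes had 14 such probe sets, of 8251 genes and 12488 probe sets on the array. Hspa4 had 5 probe sets, Bag3 had 2 and each of the others had 1. Each gene is represented by the probe set with its highest mean level over all arrays, and the others are given too. All 14 passed the filter on low signals, which asked for a signal above the 40th percentile of the array on at least 2 arrays and left 6916 genes to test.

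The tissue was the tibialis anterior, a fast muscle at the front of the lower leg. The mice were C57BL/6J females aged 2 to 3 months. The 8 injured groups received either 150 eccentric contractions, driven in the living animal while the muscle was being stretched, or a freeze injury from a steel probe 6 mm across, cooled to the temperature of dry ice and applied for 10 s. Muscles of each injury were taken at 6 hours and at 1, 3 and 7 days. The uninjured control group and 6 injured groups had 3 samples, while 2 samples represented contraction at 1 day and 2 represented freeze at 7 days, which makes 25 samples on 25 arrays. Whether some of the samples share a mouse is not in the labels, so p-values measure only how far these samples spread, and that spread may be technical in part.

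Hsp70 proteins bind unfolded stretches of other proteins and release them in a cycle driven by ATP. J-domain proteins such as Dnajb1 and Dnajb4 bring substrates and trigger ATP hydrolysis, and nucleotide exchange factors such as Hspa4, a relative of the Hsp110 type, and Bag3 reopen the chaperone. Hspa1a and Hspa1b are the stress-inducible cytosolic Hsp70 genes, Hspa8 is the constitutive cytosolic form, Hspa9 works in mitochondria and Hspa1l is best known from testis. In muscle, Bag3 sits at the Z-disc and hands damaged proteins to autophagy. Heat shock factor 1, HSF1, switches on the inducible genes by binding inverted repeats of the letters GAA in their promoters.

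The promoters of 7 members were in the RefSeq table of the GRCm38.p6 assembly; Hspa8 and Hspa9 were not matched. The sequences below are the 250 bases before the start of transcription, shown because Hspa1a and Hspa1b moved together over the arrays while their neighbour Hspa1l moved far less. Hspa1a lies on the minus strand with its promoter at chr17:34972157-34972406, and Hspa1b lies on the same strand with its promoter at chr17:34959239-34959488. Hspa1l lies head to head with Hspa1a on the plus strand, with its promoter at chr17:34972453-34972702 and its start 547 bases from that of Hspa1a. The starts of Hspa1a and Hspa1b are 12918 bases apart. Dnajb4 has 2 starts in the table, and the promoter of the second, at chr3:152193846-152194095 on the minus strand, is shown. Capitals mark the HSF1 type repeats described next, and no capitals means that none was found.
Hspa1a: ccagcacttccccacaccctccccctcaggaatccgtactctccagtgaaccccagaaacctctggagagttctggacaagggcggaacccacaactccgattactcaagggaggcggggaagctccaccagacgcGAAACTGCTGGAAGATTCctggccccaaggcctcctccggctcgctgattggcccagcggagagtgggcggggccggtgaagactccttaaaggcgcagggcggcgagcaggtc
Hspa1b: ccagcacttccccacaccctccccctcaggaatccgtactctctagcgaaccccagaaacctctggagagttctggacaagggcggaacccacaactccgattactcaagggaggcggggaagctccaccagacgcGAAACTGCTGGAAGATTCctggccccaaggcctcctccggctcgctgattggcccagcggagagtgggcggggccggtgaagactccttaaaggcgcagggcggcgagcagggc
Hspa1l: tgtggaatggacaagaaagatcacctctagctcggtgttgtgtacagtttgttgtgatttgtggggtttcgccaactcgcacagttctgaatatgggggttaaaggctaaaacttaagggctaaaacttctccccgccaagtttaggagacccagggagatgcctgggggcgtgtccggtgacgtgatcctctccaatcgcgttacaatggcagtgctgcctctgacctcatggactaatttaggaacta
Dnajb4, second start: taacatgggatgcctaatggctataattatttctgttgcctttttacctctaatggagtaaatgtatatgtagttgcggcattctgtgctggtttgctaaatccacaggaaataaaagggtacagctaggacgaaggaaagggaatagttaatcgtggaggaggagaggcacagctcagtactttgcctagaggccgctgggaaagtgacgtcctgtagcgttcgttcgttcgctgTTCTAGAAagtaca

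The promoters of Hspa1a and Hspa1b differed at 3 of 250 bases and were 98.8% identical. Both held GAANNTTCNNGAANNTTC with at most 1 mismatch, as GAAACTGCTGGAAGATTC from -114 to -97 relative to the start, and the exact shorter form GAANNTTC inside it as GAAGATTC from -104 to -97. Such an 18-base match, or that of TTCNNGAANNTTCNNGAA, with at most 1 mismatch, was present in 0.25% of the 32851 promoters of the table (81 promoters). The second promoter of Dnajb4 held the shorter form TTCNNGAA as TTCTAGAA from -14 to -7. Either short form, GAANNTTC or TTCNNGAA, was present in 12.84% of promoters. The first promoter of Dnajb4 and those of Hspa1l, Dnajb1, Bag3 and Hspa4 had no match to these 4 motifs in this window. CCAAT, searched on both strands, was found in Hspa1a and Hspa1b from -67 to -63, in Hspa1l from -57 to -53 and in the first promoter of Dnajb1 from -151 to -147, against 33.85% of all promoters. TATAAA, also searched on both strands, was found in 12.37% of promoters and in none of these. A match is a description of the letters and was not tested as a binding site.

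Values are signals on a linear scale in the arrays' own units, and a difference is that of log2(signal + 13) ± SE, which understates changes of dim genes. A gene is called changed at an adjusted p under 0.05 by limma, with Benjamini-Hochberg adjustment over all 9504 probe sets tested. Counts at an unadjusted p under 0.05 come from the same limma fit. They are given without the share of all genes at that threshold, so they are a description only. Signals are not compared between genes, since probe sets differ in brightness. All comparisons with control share the same 3 control arrays. Shares of all genes with every injured array above all controls follow, at 6 hours and at 1, 3 and 7 days. They were 6.59%, 14.4%, 17.9% and 9.01% after contraction and 11.7%, 19.6%, 6.62% and 24.3% after freeze. Shares below all controls were 11.1%, 15.8%, 16.8% and 9.4% after contraction, and 15.2%, 18.7%, 10.4% and 24% after freeze. In whole muscle, fewer cells of a type and less RNA per cell cannot be told apart. Of 14 fast fibre markers 13 passed the filter, and only Myh2 did not. Their summed signal lay between 127279 and 213941 in controls. At 6 hours its range was 128119 to 194296 (contraction) and 132440 to 140081 (freeze), and at 1 day 117841 to 140722 and 81561 to 134841. One array labelled as freeze, day 3, sample 436, resembled the controls with r = 0.935 to 0.942 and had an r of 0.711 with the other 2 arrays of its group, whose own r was 0.972. Its summed macrophage signal was 546.8, against 24160 and 25101 on those 2 and 679.9 to 905.0 in controls. It was kept as labelled, and results that rest on it are given without it too. Since all groups share 1 estimate of the spread, leaving it out also changes adjusted p-values of other groups.

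Of the 9 members, 7 changed after injury in at least 1 group by limma's moderated F test, against 28.4% of all genes. These were Hspa1a, Hspa1b, Hspa1l, Hspa8, Dnajb1, Dnajb4 and Bag3. Hspa4, by its representing probe set, and Hspa9 did not pass (adjusted p = 0.456 and 0.279). Another Hspa4 probe set, 92571_at, passed the same F test (adjusted p = 0.00043). After contraction 7 members rose at 6 hours (1.71% of all genes), 6 at 1 day (1.74%) and 2 at 3 days (5.87%). At 7 days 0 were called, with 0.549% of all genes called higher and 0.0868% lower, and 1 member had an unadjusted p under 0.05. After freeze 3 members rose at 6 hours (3.63% of all genes) and 2 at 1 day (9.37%), 1 fell at 3 days (9.01%), and 0 were called at 7 days (3.82% higher and 1.78% lower), when 2 had an unadjusted p under 0.05. The median difference from control over the 9 members was 2.80 after contraction and 1.41 after freeze at 6 hours, against -0.08 and -0.06 over all genes. At 1 day it was 2.46 after contraction and 0.11 after freeze, against -0.04 and -0.07. Without sample 432, a freeze array described below, the freeze median at 6 hours was 0.69. The activated myoblast markers moved in the same groups at 6 hours, with sums of 493 to 650 (control), 2038 to 2695 (contraction) and 2625 to 3286 (freeze). In the same order, neutrophil sums were 274 to 326, 353 to 1629 and 2580 to 4380, and macrophage sums were 680 to 905, 842 to 1822 and 2814 to 5270. Over 2 red blood cell markers of 4 listed the sums were 2310 to 3869, 2143 to 8562 and 5935 to 9735, and over 5 slow fibre markers 601 to 917, 898 to 1326 and 772 to 1251. Endothelial sums, over 6 markers, were 933 to 1147, 801 to 946 and 865 to 1399, and lymphocyte sums, over 8 markers of which Cd3e, Cd3g, Cd3d and Cd8a did not pass the filter, 572 to 638, 462 to 635 and 468 to 503. Their part in these counts was not tested.

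**Figure D1:**
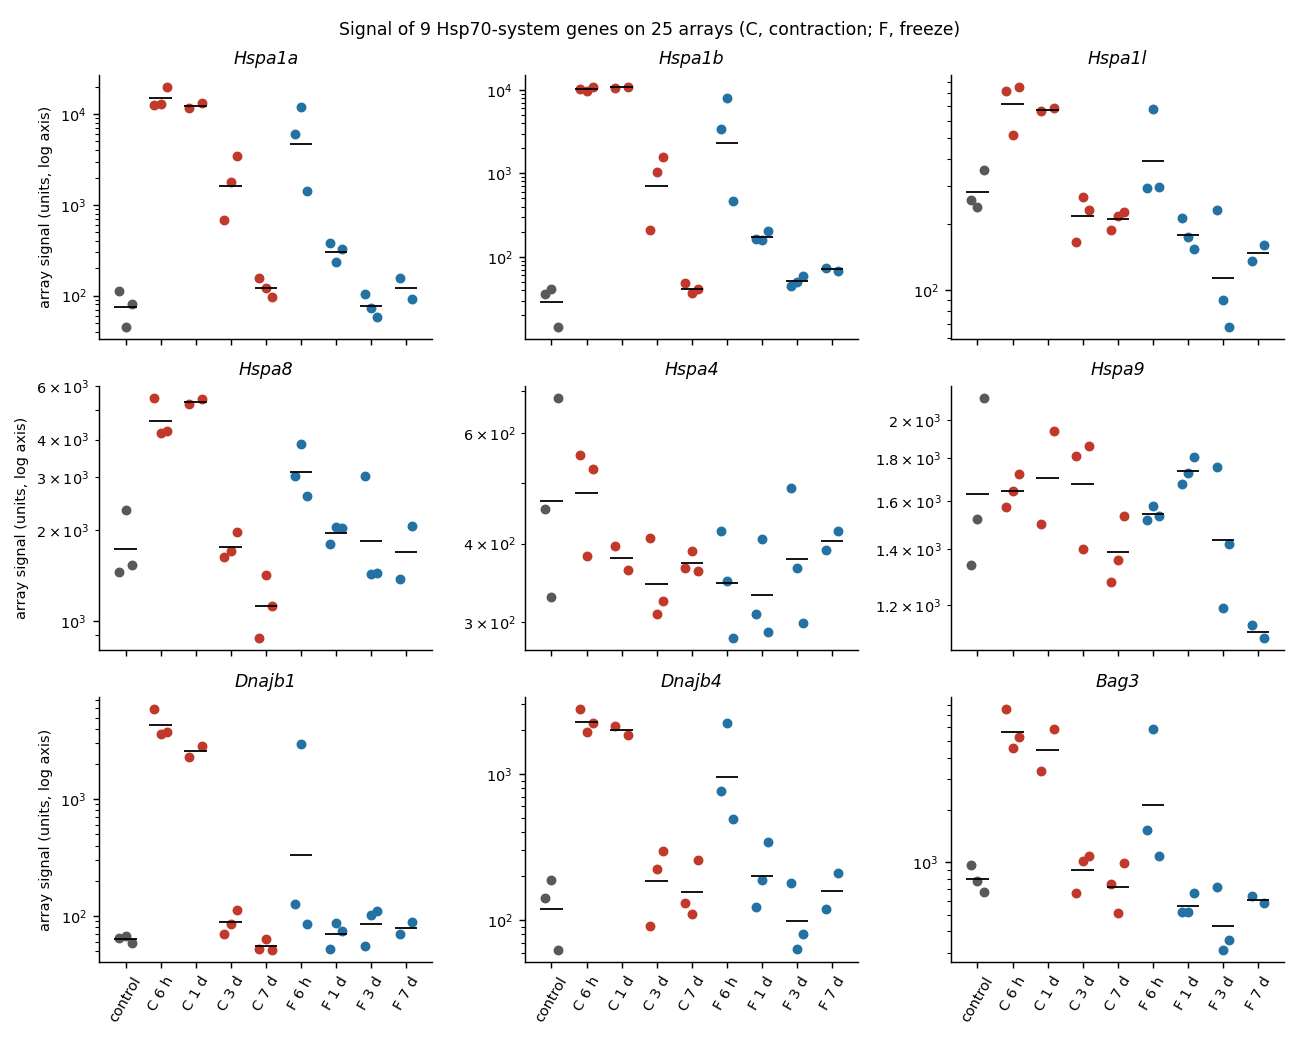
Signal of each gene's representing probe set on the 25 arrays (log axis, array units), in columns for control, contraction (C) and freeze (F) at each time. Each point is 1 array and each bar is the antilog of the group's mean log2(signal + 13), less 13. Hspa1a and Hspa1b stand above every control at 6 hours and 1 day after both injuries, whereas Hspa9 lies between 1094 and 2125 on all arrays.

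Hspa1a, an inducible cytosolic Hsp70 gene, rose after both injuries and stayed high for longer after contraction. Its control signals were 111.6, 45.2 and 80.2. They were 12629, 13031 and 20109 at 6 hours and 11635 and 13133 at 1 day after contraction, then 682.8, 1763 and 3453 at 3 days and 156.1, 120.1 and 97.3 at 7 days. Every contraction array up to 3 days lay above every control, and by 7 days the groups overlapped. After freeze the signals were 6026, 11839 and 1418 at 6 hours, 376.0, 233.9 and 324.9 at 1 day, 103.5, 73.8 and 57.8 at 3 days and 154.8 and 92.2 at 7 days. The freeze arrays at 6 hours thus spread over a wide range, all above control, while those at 3 and 7 days overlapped the controls. The difference from control after contraction was 7.41 ± 0.55 (adjusted p = 5.9e-09) at 6 hours, 7.14 ± 0.62 (adjusted p = 1.5e-07) at 1 day and 4.21 ± 0.55 (adjusted p = 0.00019) at 3 days. After freeze it was 5.74 ± 0.55 (adjusted p = 4.1e-07) at 6 hours and 1.86 ± 0.55 (adjusted p = 0.0285) at 1 day.

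Hspa1b, the near-identical second copy, followed the same course. Its control signals were 36.4, 41.1 and 14.5. After contraction they were 10291, 9623 and 10953 at 6 hours and 10516 and 10940 at 1 day, 207.4, 1037 and 1552 at 3 days, and 48.2, 36.5 and 41.2 at 7 days. The 5 contraction arrays of the first day lay between 9623 and 10953, and those at 3 days spread far more widely. After freeze they were 3366, 8044 and 461.9 at 6 hours, 163.9, 160.5 and 204.0 at 1 day, 44.9, 49.9 and 58.3 at 3 days, and 74.1 and 67.6 at 7 days. All freeze arrays, those at 7 days included, lay above the controls. The same held for 11.7%, 19.6%, 6.62% and 24.3% of all genes at 6 hours and at 1, 3 and 7 days. The differences at 3 and 7 days, 0.61 ± 0.67 and 1.00 ± 0.75, were not called (adjusted p = 0.54 and 0.42). The called differences were 7.94 ± 0.67, 8.00 ± 0.75 and 4.09 ± 0.67 after contraction at 6 hours, 1 day and 3 days, and 5.81 ± 0.67 and 2.17 ± 0.67 after freeze at 6 hours and 1 day (adjusted p = 0.0347 for the last). Across the 25 arrays the log2 levels of both copies correlated at r = 0.987. Since the copies are near-identical, part of the signal of each may come from the other's RNA, and the probe sequences were not used here.

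The rise at 1 day after freeze was the least firm of these calls. The calls of both genes were lost without control 2, control 3, sample 422 or sample 464, and that of Hspa1b also without control 1 or sample 460. With 50 units added in place of 13 the adjusted p was 0.059 for Hspa1a and 0.11 for Hspa1b. In order of mean level, Hspa1a stood highest after contraction at 6 hours and 1 day, then after freeze at 6 hours, contraction at 3 days and freeze at 1 day. Single arrays of neighbouring groups overlapped down to contraction at 3 days. Freeze at 1 day overlapped neither contraction at 3 days nor any group below it, and the remaining groups overlapped each other.

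Hspa1l, the third gene of the cluster, changed little beside its neighbours. Its signals were 257.8, 240.0 and 356.0 in controls, 821.4, 515.5 and 859.8 at 6 hours and 663.5 and 684.9 at 1 day after contraction. All 5 injured arrays lay above the controls. The difference was 1.31 ± 0.34 (adjusted p = 0.0472) at 6 hours and 1.23 ± 0.38 (adjusted p = 0.14) at 1 day. The first call was lost in 18 of 25 fits that left out 1 array, with 4 in place of 13 units added, with quantile normalization and with no filter. The second was made without sample 436 (adjusted p = 0.014). After contraction the signals were 165.4 to 267.7 at 3 days and 188.5 to 229.0 at 7 days.

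After freeze Hspa1l was called lower than control at 3 days, as were 9.01% of all genes. Its signals were 293.1, 680.4 and 296.2 at 6 hours, 213.6, 174.2 and 154.6 at 1 day, 231.7, 90.3 and 67.6 at 3 days and 136.0 and 160.6 at 7 days. From 1 day on, all freeze arrays lay below the controls, as for 18.7%, 10.4% and 24% of all genes at 1, 3 and 7 days. The difference at 3 days was -1.21 ± 0.34 (adjusted p = 0.023), and the highest of those 3 signals came from sample 436. Without that array the difference was -1.69 ± 0.29 (adjusted p = 6.1e-05), and 22.2% of all genes were then called lower. The call at 3 days was lost without control 1, control 3, sample 450 or sample 468, and in a fit of just those 2 groups (adjusted p = 0.352). Fast fibre markers summed to 35509 on the lowest array of this group. Their part in the result was not tested.

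Hspa8, the constitutive cytosolic Hsp70 gene, was bright in every group and rose by less. Its control signals were 1460, 2336 and 1539. They were 5496, 4206 and 4272 at 6 hours and 5259 and 5439 at 1 day after contraction, and 1628, 1708 and 1980 at 3 days. All 5 arrays of the first day lay above the controls and those at 3 days overlapped them. After freeze they were 3023, 3879 and 2604 at 6 hours, above all controls, and 1802, 2059 and 2033 at 1 day, within them. The difference after contraction was 1.40 ± 0.28 (adjusted p = 0.0044) at 6 hours and 1.61 ± 0.31 (adjusted p = 0.0043) at 1 day, the latter lost without sample 421 or sample 463. After freeze at 6 hours it was 0.84 ± 0.28 (adjusted p = 0.0855, and 0.0084 without sample 436). At 7 days after contraction the signals were 877.2, 1427 and 1125, all below the controls, as for 9.4% of all genes. That difference, -0.63 ± 0.28, had an unadjusted p of 0.033 and was not called (adjusted p = 0.46).

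Hspa9, the mitochondrial Hsp70 gene, kept a narrow range. Its signals were 1339, 1523 and 2125 in controls and 1499.8 to 1938 on the 5 contraction arrays of the first day, and 1516 to 1806 on the 6 freeze arrays of that day. The 95% interval of the difference from control at 6 hours ran from -0.39 to 0.41 for contraction and from -0.48 to 0.32 for freeze, and at 1 day from -0.38 to 0.51 and from -0.31 to 0.49. The lowest signals, 1136 and 1094, were those of freeze at 7 days, both below all controls, as for 24% of all genes. That difference was -0.54 ± 0.22 (adjusted p = 0.13, and 0.038 without sample 436, when 8.71% of all genes were called lower).

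By their representing probe sets, the exchange factors behaved unequally. Bag3, the exchange factor that couples Hsp70 to autophagy, had control signals of 958.3, 783.5 and 672.3. After contraction they were 7575, 4514 and 5230 at 6 hours and 3370 and 5810 at 1 day, all above control, then 663.6, 1014 and 1089 at 3 days and 752.6, 512.4 and 983.8 at 7 days, overlapping control. After freeze they were 1530, 5834 and 1086 at 6 hours, 515.7, 516.9 and 662.3 at 1 day, 717.5, 313.7 and 355.0 at 3 days and 638.5 and 579.6 at 7 days. By this probe set, Bag3 was thus above the controls on all freeze arrays at 6 hours, as were 11.7% of all genes. It was below them on all at 1 and 7 days, as were 18.7% and 24%. By the second probe set, 161980_f_at, the freeze arrays overlapped the controls, 425.3 to 715.1, at each of these times. Their signals were 573.4 to 2772 at 6 hours, 305.7 to 600.0 at 1 day and 461.6 to 609.4 at 7 days. The difference after contraction was 2.80 ± 0.44 (adjusted p = 0.000297) at 6 hours and 2.46 ± 0.49 (adjusted p = 0.0061) at 1 day, the latter lost without sample 463. After freeze at 6 hours it was 1.41 ± 0.44 (adjusted p = 0.0681, and 0.021 without sample 436), and at 3 days -0.86 ± 0.44 (adjusted p = 0.16, and -1.22 ± 0.44 with adjusted p = 0.028 without it). The second probe set of Bag3, 161980_f_at, gave 2.92 ± 0.47 (adjusted p = 0.00047) and 2.52 ± 0.53 (adjusted p = 0.0093) after contraction at 6 hours and 1 day, and 1.12 ± 0.47 (adjusted p = 0.21) after freeze at 6 hours.

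Hspa4, the Hsp110 type exchange factor, gave different answers by probe set. The representing set, 96594_at, had signals of 454.2, 328.8 and 683.3 in controls and 282.2 to 553.3 on the 22 injured arrays, and no comparison with control was called. Its difference after contraction at 6 hours was 0.04 ± 0.24, with a 95% interval of -0.45 to 0.53. Probe set 92571_at had signals of 125.9, 134.6 and 105.9 in controls, 337.3, 300.4 and 359.7 at 6 hours and 258.8 and 367.5 at 1 day after contraction, and 190.8, 249.3 and 202.2 at 6 hours after freeze. None of these injured arrays overlapped the controls. Its difference was 1.36 ± 0.18 (adjusted p = 5.3e-05) and 1.26 ± 0.20 (adjusted p = 0.00077) after contraction at 6 hours and 1 day, 0.92 ± 0.18 (adjusted p = 0.0056) at 3 days, and 0.75 ± 0.18 (adjusted p = 0.016) after freeze at 6 hours. It was also called after freeze at 1 day, with 0.64 ± 0.18 (adjusted p = 0.0226), and at 7 days, with 0.96 ± 0.20 (adjusted p = 0.0115). Probe set 100353_g_at rose by 1.13 ± 0.29 (adjusted p = 0.043) after contraction at 6 hours, while 100352_at and 161745_f_at did not pass, at 0.08 and 0.54. The size of the Hspa4 difference and whether it was called therefore depend on the probe set, and counts of members use the representing one.

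The J-domain genes rose with the inducible chaperones. Dnajb1, which encodes the main cytosolic partner of inducible Hsp70, had control signals of 64.8, 66.4 and 58.8. After contraction they were 5870, 3607 and 3761 at 6 hours and 2316 and 2873 at 1 day, then 70.0, 85.8 and 112.9 at 3 days and 51.7, 63.0 and 51.1 at 7 days. All 3 arrays at 3 days lay above the controls, as for 17.9% of all genes. The difference was only 0.41 ± 0.72 (adjusted p = 0.75), when Hspa1a and Hspa1b were still called. After freeze the 6 hour signals were 126.8, 2986 and 85.2, and all later ones lay between 51.4 and 110.4. The difference after contraction was 5.82 ± 0.72 (adjusted p = 1.3e-05) at 6 hours and 5.09 ± 0.80 (adjusted p = 0.00052) at 1 day. After freeze at 6 hours it was 2.18 ± 0.72 (adjusted p = 0.0875), the mean of 1 array near the contraction level and 2 arrays just above the controls. It was called without sample 418, 446 or 436.

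Dnajb4, another cytosolic J-domain gene, rose after both injuries. Its control signals were 140.9, 187.1 and 62.7. They were 2768, 1934 and 2230 at 6 hours and 2136 and 1863 at 1 day after contraction, and 763.5, 2249 and 493.2 at 6 hours after freeze, all above control. From 3 days after contraction and from 1 day after freeze the signals, 63.3 to 342.5, overlapped the controls. The difference was 4.12 ± 0.51 (adjusted p = 1.6e-05) and 3.92 ± 0.57 (adjusted p = 0.0002) after contraction at 6 hours and 1 day and 2.86 ± 0.51 (adjusted p = 0.0011) after freeze at 6 hours.

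**Figure D2:**
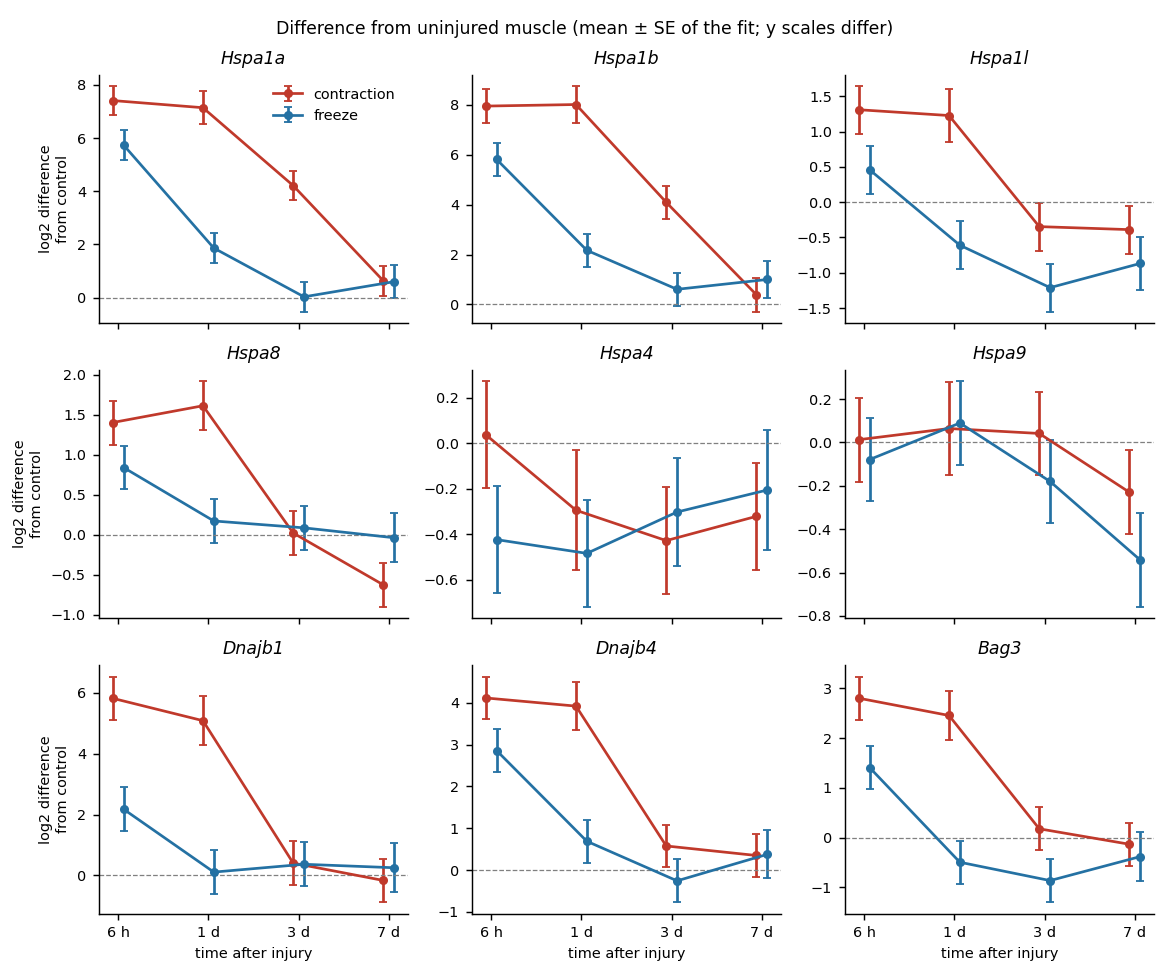
Difference of log2(signal + 13) from the control mean for each gene at 6 hours and at 1, 3 and 7 days after contraction or freeze, as the fitted mean ± SE with a scale of its own in each panel. Contraction values of Hspa1a were 7.41, 7.14, 4.21 and 0.63 over the 4 times and freeze values 5.74, 1.86, 0.03 and 0.60.

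The steps between times were tested next. From 6 hours to 1 day after contraction 0 members were called (0.0578% of all genes were called higher), and 0 had an unadjusted p under 0.05 by limma. The change of Hspa1b was 0.06, with a 95% interval of -1.49 to 1.62, and that of Dnajb1 was -0.74 (-2.40 to 0.93). From 1 to 3 days after contraction 7 members fell, against 0.853% of all genes. Dnajb1 had the largest of these changes, at -4.68 ± 0.80 (adjusted p = 0.00355), and Hspa1b had -3.91 ± 0.75 (adjusted p = 0.0087). The count was 0 without sample 463, 1 without sample 421, the other array of contraction at 1 day, and 2 without sample 435. Macrophage sums were 1404 to 2220 at 1 day and 9382 to 13073 at 3 days, and the actin ratio was 0.614 to 0.640 and then 0.923 to 1.21. Fast fibre sums at 3 days, 82587 to 107456, lay below all controls, and the part of these measures in the fall was not tested. From 3 to 7 days Hspa1a and Hspa1b fell, with -3.58 ± 0.55 and -3.70 ± 0.67 (0.506% of all genes), the latter not without sample 467. Without sample 436 there were 3 calls (8.62%), the third being Hspa8 with -0.65 (adjusted p = 0.038).

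With all arrays, the only members called in a step after freeze fell between 6 hours and 1 day. From 6 hours to 1 day 4 members fell, against 1.36% of all genes. The values were -3.87 ± 0.55 for Hspa1a, -3.64 ± 0.67 for Hspa1b, -2.17 ± 0.51 for Dnajb4 and -1.90 ± 0.44 for Bag3. The count was 2 without sample 432, 422 or 460 (0.624% of all genes without 432), the calls of Dnajb4 and Bag3 being lost, and 7 without sample 436 (6.24%). Macrophage sums were 2814 to 5270 at 6 hours and 7317 to 9752 at 1 day, and activated myoblast sums were 2625 to 3286 and then 1065 to 1220. The actin ratio was 0.661 to 0.952 at 6 hours and 1.01 to 1.32 at 1 day, and the part of these measures in the fall was not tested. From 1 to 3 days 0 members were called (1.75% of all genes were lower), and 2 had an unadjusted p under 0.05 in the limma fit. When sample 436 was left out, 2 fell (9.75%), namely Hspa1a with -2.02 (adjusted p = 0.019) and Hspa1l with -1.08 (adjusted p = 0.0115). From 3 to 7 days 0 were called and 0 had an unadjusted p under 0.05 (0.752% of all genes were higher).

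The injuries were then compared at matched times. At 1 day 7 members were lower after freeze than after contraction, against 0.795% of all genes, and Hspa4 and Hspa9 were not called. The difference, freeze minus contraction, was -5.83 ± 0.75 for Hspa1b (adjusted p = 9.4e-05), -5.28 ± 0.62 for Hspa1a (adjusted p = 3.9e-05) and -4.98 ± 0.80 for Dnajb1 (adjusted p = 0.0014). It was -3.23 ± 0.57 for Dnajb4, -2.95 ± 0.49 for Bag3, -1.84 ± 0.38 for Hspa1l and -1.44 ± 0.31 for Hspa8. For each of the 7 every freeze array lay below both contraction arrays, as for 21.6% of all genes. The number called was 2, Hspa1a and Hspa1b, without sample 463 and 4 without sample 421, each of which leaves 1 contraction array. Activated myoblast markers, of which 6 of 7 had a probe set, summed to 1065 to 1220 after freeze and 1664 to 2413 after contraction at this time. The macrophage markers, of which 14 of 15 had a probe set, summed to 7317 to 9752 after freeze and 1404 to 2220 after contraction at this time. The actin 3'/5' signal ratio ran from 1.01 to 1.32 for freeze and from 0.614 to 0.640 for contraction, and neutrophil sums from 1774 to 3232 and from 237 to 370. Lymphocyte sums were 243 to 336 for freeze and 535 to 619 for contraction. The part of these 5 measures in the result was not tested.

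**Figure D3:**
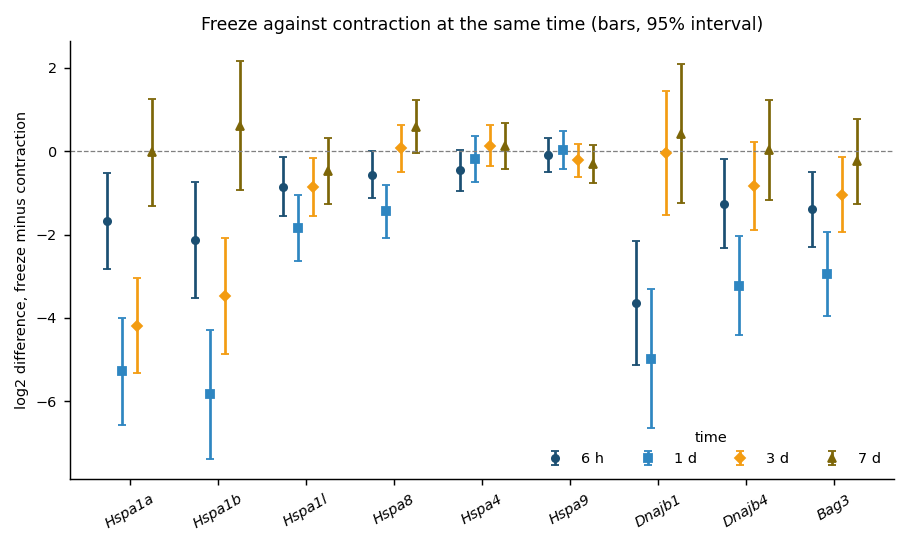
Freeze minus contraction at 6 hours and at 1, 3 and 7 days for the 9 genes, as the fitted log2 difference with its 95% interval. At 1 day the intervals of Hspa1a, Hspa1b, Hspa1l, Hspa8, Dnajb1, Dnajb4 and Bag3 lie below 0, and those of Hspa4 and Hspa9 include it.

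At 6 hours, of the 9 members, only Dnajb1 was called between the injuries, with -3.64 ± 0.72 for freeze minus contraction (adjusted p = 0.03), against 0.0723% of all genes. The freeze arrays lay wholly below the contraction arrays for 4 members, namely Hspa1a, Hspa1b, Hspa8 and Dnajb1, against 9.33% of all genes. By limma 6 members had an unadjusted p under 0.05, a count given without its share of all genes. For Hspa1a the difference was -1.67, with a 95% interval of -2.82 to -0.52, and for Dnajb4 it was -1.26 (-2.32 to -0.19). The Dnajb1 call was lost without samples 417, 445, 418 or 446 and in a fit of just those 2 groups (adjusted p = 0.205).

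One freeze array at 6 hours, sample 432, stood near the contraction arrays for these genes. Against the control mean, Dnajb1 was 5.30 higher on it and 0.87 and 0.37 higher on the other 2 freeze arrays, samples 418 and 446. Bag3 was 2.85 higher against 0.93 and 0.44, and Hspa1l 1.24 against 0.06 and 0.08. For Hspa1a and Hspa1b the same array led with 7.08 and 7.59, and sample 446 was lowest with 4.03 and 3.50. The array correlated over all probe sets at 0.936 to 0.942 with its own group, at 0.927 to 0.947 with contraction at 6 hours and at 0.875 to 0.909 with controls. Its summed neutrophil signal, over 8 markers of which Ltf and Ngp did not pass the filter, was 2580, against 2809 and 4380 on samples 418 and 446 and 352.5 to 1629 after contraction. Its macrophage sum was 2814, against 3001 and 5270, and its actin ratio was 0.661, against 0.790 and 0.952.

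Since sample 432 was singled out by these same genes, the values without it are a description and no test of the difference between injuries. Freeze minus contraction at 6 hours was then -5.20 for Dnajb1, -3.02 for Hspa1b, -2.34 for Hspa1a and -2.12 for Bag3, the 4 members past the threshold in that fit, as were 0.406% of all genes in that direction. Against control, Hspa1a, Hspa1b and Dnajb4 were still called at 6 hours after freeze without it, with 5.07, 4.92 and 2.24. With all 3 freeze arrays, 6 members lay above every control at 6 hours, against 11.7% of all genes. Without sample 436, 6 were called (6.92% of all genes), the added ones being Hspa8, Bag3 and Dnajb1, the last at an adjusted p of 0.0424. Without sample 446, 5 were called.

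**Figure D4:**
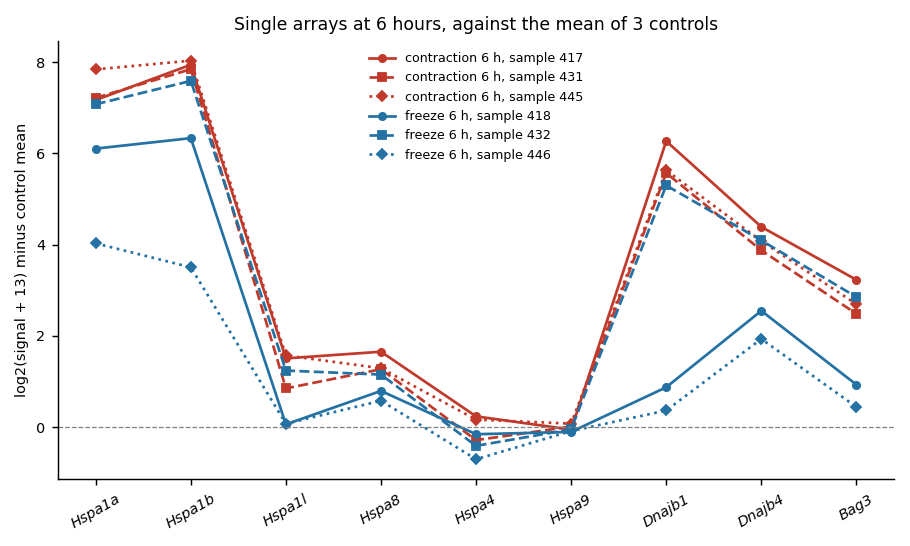
log2(signal + 13) minus the mean of 3 controls on each of the 6 arrays taken at 6 hours, with contraction and freeze in different colours and 1 line for each sample across the 9 genes. Sample 432 lies at 5.30 for Dnajb1, below the contraction arrays at 5.57 to 6.27, and at 2.85 for Bag3, among them at 2.48 to 3.23, while samples 418 and 446 lie at 0.93 or lower for both genes.

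At 3 days 4 members had an unadjusted p under 0.05 by limma, a count given without its share of all genes. Hspa1a was lower after freeze at that time, with -4.18 ± 0.55 (adjusted p = 0.00052), and so was Hspa1b, with -3.48 ± 0.67 (adjusted p = 0.0193), against 0.39% of all genes. In a fit of just those 2 groups neither was called (adjusted p = 0.67 and 0.82), and the call of Hspa1b was lost without samples 449, 467, 450 or 468. Without sample 436, 4 members were lower (9% of all genes), with Hspa1l at -1.34 and Bag3 at -1.40 added. Macrophage sums at 3 days were 9382 to 13073 after contraction and 24160 and 25101 on freeze samples 450 and 468. Fast fibre sums were 82587 to 107456 after contraction and 35509 and 44890 on those freeze samples. The part of these measures in the result was not tested. At 7 days 0 members were called and 0 had an unadjusted p under 0.05 (0.405% of all genes were higher). Without sample 436, Hspa1l and Hspa9 were called lower than control at 7 days after freeze (8.71% of all genes). At 3 days after freeze 2 were then lower than control, Hspa1l and Bag3 (22.2%), and at 1 day after contraction 7 were higher (3.48%).

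The course over the 4 times differed between the injuries for Hspa1a, Hspa1b and Dnajb1 by limma's F test of injury by time (adjusted p = 0.00768, 0.014 and 0.021), against 0.68% of all genes. Only 1 of the 9 passed when sample 421, 463, 440 or 454 was left out, each from a group of 2 arrays. Whether the step from 6 hours to 1 day alone differed was tested as well, and 0 members passed (0.0289% of all genes were lower). By limma 5 members had an unadjusted p under 0.05, a count given without its share of all genes. For Hspa1a the difference of the steps was -3.61 ± 0.83 (adjusted p = 0.17), and without sample 436 its adjusted p was 0.038, as 1 member of 9 against 0.189% of all genes. Without sample 446, 2 members passed, Hspa1a and Hspa1b.

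The members differed in how they followed each other over the 25 arrays, which share their scaling and group structure. The closest pairs were Hspa1a with Hspa1b and Dnajb4 with Bag3 (r = 0.951), then Hspa1l with Bag3 (0.933). Hspa4, by its representing probe set 96594_at, correlated at 0.025 to 0.391 with the other members and Hspa9 at 0.202 to 0.410. No correlation was computed for the other Hspa4 probe sets, of which 92571_at and 100353_g_at rose after contraction at 6 hours. Among genes that are no members, the 5 most like Hspa1b were Atf3 (r = 0.955), Fos (0.944), Phlda1 (0.936), Hsph1 (0.924) and Ccn1 (0.910). The 5 most like Bag3 were Ccn1 and Dnaja1 (both 0.921), Enah (0.919), Cyp2d10 (0.903) and Fgf1 (0.897). For Hspa8 they were Stk39 (0.916), Hsph1 (0.895), Nfil3 (0.880), Ccn1 (0.865) and Gadd45g (0.849). For Hspa9 the values were lower, with Stk40 (0.840), Kctd9 (0.831), Krr1 (0.820), Psmd11 (0.789) and Rhou (0.757).

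Other genes of the Hsp70 system were counted in the same fits, where 1.71% of all genes rose after contraction and 3.63% after freeze at 6 hours, 1.74% and 9.37% at 1 day, and 5.87% and 9.9% at 3 days. Of 9 further Hsp70 and Hsp110 genes 5 were tested, and 1 rose after contraction at 6 hours and 2 each at 1 and 3 days, and 2 rose after freeze at 6 hours and 1 at 1 day. Hsph1, an Hsp110 exchange factor, rose by 2.34 and 2.92 after contraction at 6 hours and 1 day and by 1.15 after freeze at 6 hours, and was lower after freeze than contraction at 1 day (-2.34, adjusted p = 9.4e-05). Hspa5, the Hsp70 of the endoplasmic reticulum, had its largest rise after freeze at 1 day, 2.23 (adjusted p = 5.5e-06), when Hspa8 had a difference of 0.17. The lowest means over the 8 injured groups were those of Hspa2 and Hspa14, neither of which was called with all arrays. Without sample 436, Hspa14 was called beside Hspa5 at 1 day after freeze, and at 3 days after freeze 3 of the 5 were higher, Hspa5, Hspa14 and Hspa4l, against 0 with it (22.8% of all genes without it).

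Of 28 other J-domain genes 21 were tested. After contraction at 6 hours and after freeze at 6 hours 1 rose, which was Dnaja1, a cytosolic J-domain gene, with 3.78 (adjusted p = 1.6e-05) and 1.76 (adjusted p = 0.03). At 1 day 3 rose after contraction, Dnaja1, Dnajb2 and Dnajb9, and after freeze Dnajb9, Dnajb11 and Dnajc3 rose and Dnaja2 fell by 1.09. Dnajb11, a J-domain partner of Hspa5 in the endoplasmic reticulum, had 1.30 (adjusted p = 0.00038) after freeze at 1 day. Dnajb5 had the lowest mean of the list with Dnaja2 and was not called. At 3 days after freeze 1 rose and 1 fell, and without sample 436 these counts were 5 and 8 of 21, when 22.8% of all genes rose and 22.2% fell. Without that sample 2 rose at 6 hours after contraction, Dnajb2 being added, and 3 fell at 1 day after freeze, Dnaja3 and Dnajb6 being added (13.1% of all genes fell).

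Of 14 other cofactors 11 were tested. Stip1, which links Hsp70 to Hsp90, rose by 1.25 (adjusted p = 0.0014) and 2.10 (adjusted p = 9.4e-06) after contraction at 6 hours and 1 day, and St13, a cofactor that slows ADP release from Hsp70, rose by 0.91 at 6 hours. After freeze at 6 hours 0 of 11 were called and 6 had an unadjusted p under 0.05 in the limma fit. When sample 436 was left out 3 of the 11 fell, Stub1, Tomm70a and Ppid (5.83% of all genes). After freeze at 1 day Hspbp1, an exchange factor, fell by 0.65 (adjusted p = 0.024). Of 8 partners of Bag3 at the Z-disc and in autophagy 6 were tested, and Hspb8, the small heat shock protein that binds Bag3, rose by 2.06 and 2.01 after contraction and by 1.39 and 0.98 after freeze at 6 hours and 1 day. Capza1 and Sqstm1 rose with it after freeze at 1 day, when Bag3 itself had -0.50. Map1lc3b fell by 0.94 (adjusted p = 0.027) after contraction at 3 days, and Stub1 was not called with all arrays.

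Of 23 HSF1 targets and regulators outside the Hsp70 system 13 were tested. After contraction 5 rose at 6 hours and 6 at 1 day, and after freeze 3 and 4, with medians over the list of 1.06, 1.35, 0.14 and 0.03. The shares of all genes that rose were 1.71% and 1.74% after contraction and 3.63% and 9.37% after freeze. Hsp90aa1, the inducible Hsp90 gene, rose by 5.14 and 5.05 after contraction at 6 hours and 1 day and by 3.38 and 2.83 after freeze. Unlike Hspa1a, it was still called 3 days after freeze, with 2.62 (adjusted p = 0.0087). Serpinh1, a collagen chaperone of the endoplasmic reticulum, rose by 2.29 after contraction at 6 hours and by 1.78 after freeze at 1 day. Fkbp4 and Hsf4 had the lowest means of the list, with values of -0.34 and -0.53 at 1 day after freeze, and were not called at that time. Hspb8 is on this list and on that of Bag3 partners. The summed fibroblast signal was 2648 to 4885 in controls and 20972 to 21311 at 7 days after freeze, when Serpinh1 was 1 of the genes called, and its part there was not tested.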

How the data were processed

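RNA of 25 tibialis anterior muscles was extracted with TRIzol and RNeasy columns, per the labels' protocols, and hybridised to Affymetrix mouse arrays. The authors deposited 1 linear intensity signal for each probe set. MAS5 is the tool that the submitters' processing notes name, with a version not given in the sources used here. Each array's mean after trimming 2% at either end was 150.09 to 150.13, so changes are relative to the bulk of the array. Of 12488 probe sets 10833 carried 1 gene symbol.

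After 13 units had been added, the deposited signals were converted to log2. The 9504 probe sets above the 40th percentile of an array on at least 2 arrays were fitted with limma 3.58.1 in R 4.3.3, with 1 mean per group and eBayes with a trend (16 residual and 5.46 prior degrees of freedom). Tests were two-sided, with Benjamini-Hochberg adjustment over all probe sets tested within each of 19 contrasts and 2 F tests. The percentages of all genes use 1 probe set per gene, 6916 in all. The number of arrays limits the precision. The script was tested on simulated data. Alternatives were other pseudocounts, quantile normalization, median centring, other filters, a random block, fewer groups in the fit, all probe sets of a gene called, and leaving out each array.

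All 9 members are named. Of each further list the 2 genes with the highest and the 2 with the lowest mean difference from control are named, not all with values. Hspa2, Hspa14, Dnajb5 and Stub1 are named without values. The 5 most alike genes by Pearson's r over the 25 arrays are given for Hspa1b, Hspa8, Hspa9 and Bag3. Other genes are named where a count was 5 or fewer, after their values were seen. The members and lists were chosen with earlier results of these data known. Promoters came from a RefSeq table of GRCm38.p6.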

Additional observations from a re-analysis of the deposited data

Results flagged for a closer look

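For 3 of the 9 genes the effect of injury over time differed between contraction and freeze by limma's moderated F test of injury by time, with Benjamini-Hochberg adjustment over all probe sets. Hspa1a had an adjusted p of 0.007677, Hspa1b of 0.01433 and Dnajb1 of 0.02114. Freeze minus contraction was -0.03 for Hspa1a and 0.61 for Hspa1b at 7 days, neither called, and -5.28 and -5.83 at 1 day. For Dnajb1 the injuries parted at 6 hours and 1 day and had close values of 0.41 and 0.37 at 3 days. The number of members passing this test was 1 without samples 421, 463, 440 or 454, 2 without sample 422 or 464 and 4 without sample 432 or sample 436.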

How the results depend on the processing

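The 9 other settings did not all give values of single genes. Over those that did, 1355 values stayed on their side of the threshold, 3 passed it and 10 no longer did. With each of 25 arrays left out these counts were 4159, 26 and 90, and no called value changed sign in either set. Changes of sign among values that were not called were not counted. The number of members called after freeze at 1 day was 0 with 50 units added. When a fit held just the groups compared it was 0 for freeze at 3 days against control, and 0 for freeze minus contraction at 6 hours and at 3 days. These fits hold fewer samples.

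With 1 array left out at a time, the number of members called against control ranged from 6 to 7, 4 to 7, 2 to 2 and 0 to 0 after contraction at 6 hours and at 1, 3 and 7 days, and from 3 to 6, 0 to 2, 0 to 2 and 0 to 2 after freeze. Freeze minus contraction gave 0 to 4 at 6 hours, 2 to 7 at 1 day, 1 to 4 at 3 days and 0 to 0 at 7 days. The steps after contraction gave 0 to 0, 0 to 7 and 1 to 3, and those after freeze 2 to 7, 0 to 2 and 0 to 0. The difference of the first steps gave 0 to 2, the F test of any change 7 to 7 and that of injury by time 1 to 4. Where this left 1 array in a group, that array was assumed to vary like the other groups.

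No paired analysis was possible because the groups share no replicate numbers and the labels do not say that adjacent sample numbers mark a pair. A fit that took adjacent numbers as a random block all the same, at a correlation of -0.09, changed no call. Arrays give no depth, and a difference of Hspa1b at its control signal of 14.5 to 41.1 is understated by the 13 units added.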
